A study of Mus musculus with 8 samples.

Results

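The cytotoxic granule genes described here encode proteins that killer lymphocytes pack into secretory lysosomes or need for them. They comprise the granzyme genes Gzmb, Gzma, Gzmc and Gzmk, the perforin gene Prf1, and Nkg7, Srgn, Ctsw, Lamp1 and Serpinb9. These 10 genes were chosen by symbol, with results of these arrays for RORγt deficiency in DMSO and for digoxin in wildtype cells already known, and all of their probe sets were taken. All 10 were measured, by 12 probe sets, out of 18193 genes and 34945 probe sets with 1 gene symbol. No filter on low values was applied, so every member entered the fit.

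The study measured total RNA of mouse CD4 T cells on 8 Affymetrix Mouse Genome 430 2.0 arrays, in 4 groups of 2 arrays. Per the labels, naive C57BL/6 CD4 T cells sorted by flow cytometry were activated through CD3 and CD28 and kept for 48 h under Th17-inducing conditions. Wildtype and RORγt-deficient cells each received DMSO or digoxin, so Th17 culture and activation were common to all groups. RORγt is the lineage-defining nuclear receptor of Th17 cells, and digoxin is a cardiac glycoside that the study tested as its antagonist. Neither the digoxin dose nor the allele behind the deficiency is named in the sources at hand. The titles number biological replicates but do not name animals or cultures, so p-values reflect only array-to-array spread, some of which may be technical.

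Granule killing works through an ordered set of parts. Perforin opens the target cell membrane, granzymes enter and cleave proteins inside it, the proteoglycan serglycin holds them in the granule core, and lysosomal membrane proteins such as LAMP1 line the granule. CD8 T cells and NK cells are the best known users of this machinery, and activated CD4 T cells can also express granzyme B.

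Promoters of 3 granzyme and granule genes are printed first, because Gzmb and Nkg7 carried the largest differences among the members and Gzmc is the gene next to Gzmb. Each is the 250 bases before the RefSeq start in GRCm38.p6, read 5′ to 3′ on the gene's strand, with the searched letters in capitals where they matched on either strand. The Gzmb window is chr14:56262335-56262584 (minus strand), the Nkg7 window chr7:43436888-43437137 (plus strand) and the Gzmc window chr14:56234658-56234907 (minus strand).
Gzmb: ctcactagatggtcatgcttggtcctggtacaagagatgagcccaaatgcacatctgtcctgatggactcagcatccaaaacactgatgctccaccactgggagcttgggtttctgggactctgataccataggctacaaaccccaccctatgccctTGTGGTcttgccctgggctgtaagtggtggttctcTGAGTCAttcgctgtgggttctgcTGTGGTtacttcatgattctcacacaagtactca
Nkg7: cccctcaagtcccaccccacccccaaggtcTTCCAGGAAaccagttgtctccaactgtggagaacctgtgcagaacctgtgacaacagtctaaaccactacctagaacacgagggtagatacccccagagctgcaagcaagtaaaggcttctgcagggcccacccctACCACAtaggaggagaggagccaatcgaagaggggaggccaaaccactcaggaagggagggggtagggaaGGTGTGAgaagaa
Gzmc: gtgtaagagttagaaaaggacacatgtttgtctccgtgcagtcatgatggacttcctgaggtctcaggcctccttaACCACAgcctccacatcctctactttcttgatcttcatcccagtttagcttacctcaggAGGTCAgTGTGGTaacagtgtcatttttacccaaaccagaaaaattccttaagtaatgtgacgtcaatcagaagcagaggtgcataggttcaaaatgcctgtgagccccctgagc
The Gzmb window held RUNX letters 93 and 34 bases before the start and AP-1 letters 58 bases before it. Nkg7 had STAT letters 220, RUNX letters 83 and T-box letters 13 bases before its start. In Gzmc, RUNX letters lay 174 and 108 bases before the start and the nuclear receptor letters 115 bases before it.

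The letters searched, on both strands, were AGGTCA for ROR and other nuclear receptors, GGTGTGA for T-box factors, TGTGGT for RUNX, TGANTCA for AP-1, TTCNNNGAA for STAT and TATAAA for the TATA box, and no matches overlapped in these windows. A RefSeq window was at hand for 9 of the 10 members, all but Ctsw. RUNX letters were in a window of 7 of these 9 genes, against 14% of 32851 single windows of all genes, so the units differ. The RUNX letters of Srgn lay in a different window of that gene from its TATA letters. T-box letters were in the windows of Gzmk and Nkg7 (3.33% of all windows), nuclear receptor letters in that of Gzmc (14%), and AP-1 letters in that of Gzmb (6.75%). STAT letters occurred in Nkg7 (7.02%) and TATA letters in Srgn (12.4%). Such matches describe the letters only and show no binding.

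All values below are log2 differences from the wildtype DMSO mean, which is 0 by construction, and the deposited values hold no absolute level. From their numerical precision, a range could still be read for the level of each probe set on its dimmest array. That level was 8 or above for Srgn, Ctsw and Lamp1. It lay between 4 and 8 for Gzmb, Gzma, Nkg7, Prf1 and the main Serpinb9 probe set, and between 2 and 4, the dimmest range found, for Gzmc and Gzmk. Of all genes, 31.1% were in the dimmest range, 48.0% between 4 and 8 and 20.9% at 8 or above.

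**Figure D1:**
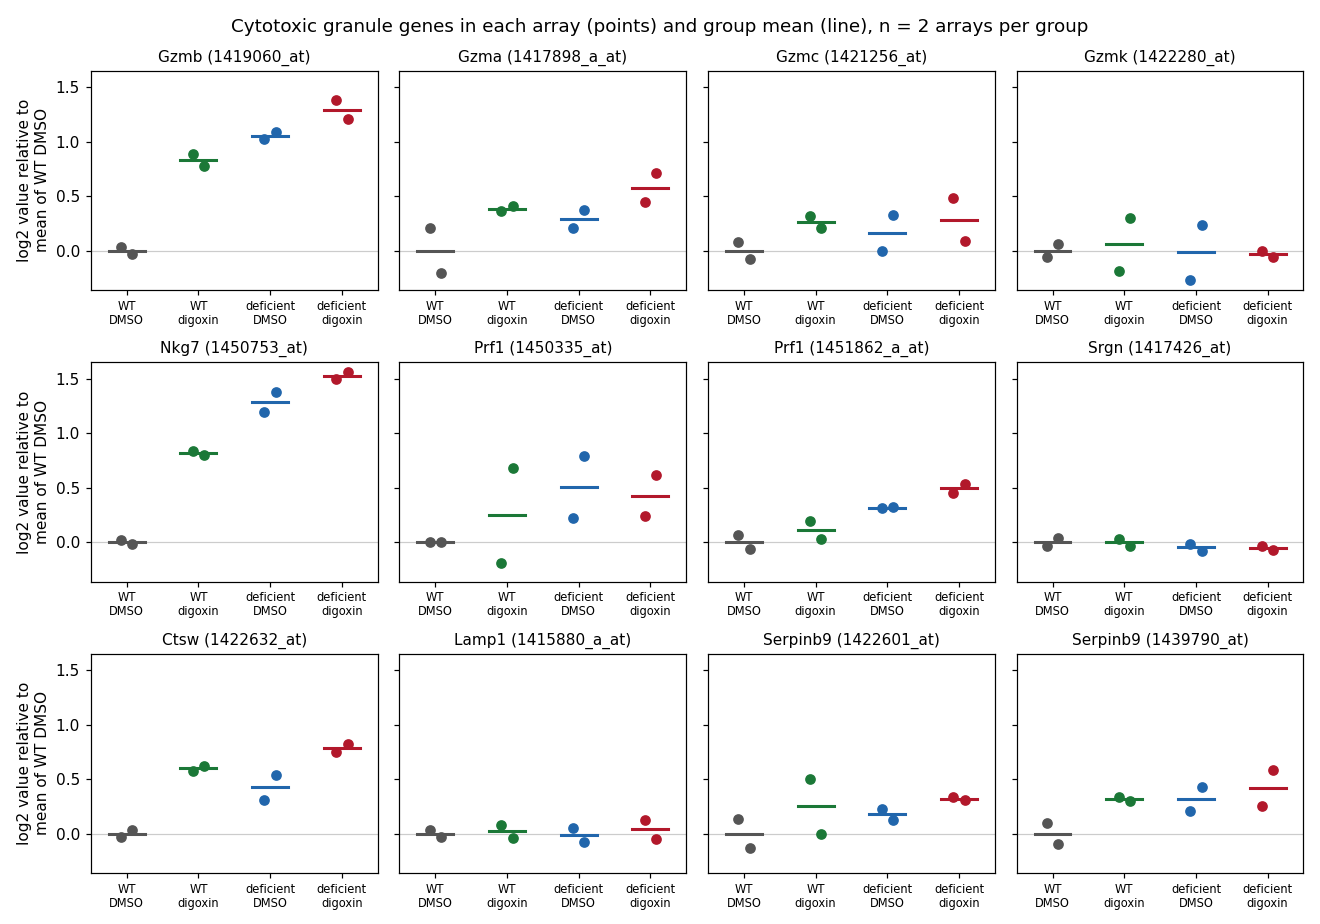
Values of the 12 probe sets of the cytotoxic granule genes in each of the 8 arrays, as log2 differences from the mean of wildtype DMSO, with points for arrays and lines for means of 2 arrays. Gzmb and Nkg7 climb from wildtype DMSO through wildtype digoxin and RORγt-deficient DMSO to RORγt-deficient digoxin, at 1.29 and 1.53, while Srgn and Lamp1 stay near 0 in every group.

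Among the granzymes, Gzmb, the aspartate-cleaving protease that triggers caspases, had the widest spread between groups. It stood at 0.03 and -0.03 with DMSO and 0.89 and 0.78 with digoxin in wildtype cells, and 1.02 and 1.09 with DMSO and 1.38 and 1.21 with digoxin in RORγt-deficient cells. No array of a group overlapped another group. RORγt-deficient cells in DMSO were 2.08-fold above wildtype (log2 difference 1.05 ± 0.11, SE from limma, n = 2 arrays per group, as in all values after ± below unless named SD). Digoxin-treated wildtype cells were 1.78-fold above DMSO (0.83 ± 0.11). These 2 comparisons were among those known when the members were chosen, so their values are a description without a test.

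Gzma encodes the tryptase-like granzyme A. Its values were 0.21 and -0.21 with DMSO and 0.36 and 0.41 with digoxin in wildtype cells, and 0.20 and 0.37 with DMSO and 0.44 and 0.71 with digoxin in RORγt-deficient cells. The wildtype DMSO arrays lay far apart, and their higher value overlapped the RORγt-deficient DMSO arrays. The differences were 0.29 ± 0.15 for RORγt deficiency in DMSO and 0.39 ± 0.15 for digoxin in wildtype cells.

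Gzmc, next to Gzmb on chromosome 14, stood at 0.08 and -0.08 with DMSO and 0.32 and 0.21 with digoxin in wildtype cells, and -0.01 and 0.32 with DMSO and 0.48 and 0.09 with digoxin in RORγt-deficient cells. The arrays of both RORγt-deficient groups lay far apart, and each group overlapped at least 1 other. Gzmk, next to Gzma on chromosome 13, ranged from -0.27 in a RORγt-deficient DMSO array to 0.30 in a wildtype digoxin array, and its groups overlapped throughout. Its differences were -0.02 ± 0.19 for RORγt deficiency in DMSO and 0.06 ± 0.19 for digoxin in wildtype cells. The RefSeq gene order places Gzmf, Gzmn, Gzmg, Gzmd and Gzme on the far side of Gzmc from Gzmb. All 5 were in the dimmest range, with differences from -0.05 (Gzmd) to 0.11 (Gzmg) for RORγt deficiency in DMSO and from 0.01 (Gzmf) to 0.20 (Gzme) for digoxin in wildtype cells. These closely similar copies can share probes, which makes their separate values uncertain.

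Prf1 encodes perforin, the pore former, and its 2 probe sets disagreed. The main probe set gave 0.00 and -0.00 with DMSO and -0.19 and 0.68 with digoxin in wildtype cells, and 0.22 and 0.79 with DMSO and 0.24 and 0.61 with digoxin in RORγt-deficient cells. In each group outside wildtype DMSO the arrays of this probe set lay far apart. The other probe set had closer pairs, at 0.07 and -0.07 with DMSO and 0.19 and 0.03 with digoxin in wildtype cells, and 0.31 and 0.32 with DMSO and 0.45 and 0.54 with digoxin in RORγt-deficient cells. RORγt deficiency in DMSO measured 0.51 ± 0.27 on the main probe set and 0.32 ± 0.11 on the other, and digoxin in wildtype cells 0.25 ± 0.27 and 0.11 ± 0.11.

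Nkg7, which encodes a granule membrane protein that aids granule release, had the largest difference of the 10. It stood at 0.02 and -0.02 with DMSO and 0.84 and 0.80 with digoxin in wildtype cells, and 1.19 and 1.38 with DMSO and 1.50 and 1.56 with digoxin in RORγt-deficient cells. The groups followed each other without overlap, in the order seen for Gzmb. RORγt-deficient cells in DMSO were 2.44-fold above wildtype (1.29 ± 0.11) and digoxin-treated wildtype cells 1.76-fold above DMSO (0.82 ± 0.11).

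Ctsw, the cathepsin W gene, encodes a cysteine protease found mainly in cytotoxic lymphocytes. Its arrays were at -0.03 and 0.03 with DMSO and 0.58 and 0.62 with digoxin in wildtype cells, and 0.31 and 0.54 with DMSO and 0.75 and 0.82 with digoxin in RORγt-deficient cells. No groups overlapped, but here wildtype digoxin lay above RORγt-deficient DMSO. The difference was 0.60 ± 0.11 for digoxin in wildtype cells, or 1.52-fold, and 0.43 ± 0.11 for RORγt deficiency in DMSO, or 1.34-fold.

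The genes Srgn and Lamp1 differed little between the groups. Srgn, the serglycin gene, stayed between -0.08 and 0.04 on all 8 arrays, with differences of -0.05 ± 0.10 for RORγt deficiency in DMSO and -0.00 ± 0.10 for digoxin in wildtype cells. Lamp1 stayed between -0.08 and 0.13, with differences of -0.01 ± 0.11 and 0.02 ± 0.11. Serpinb9, which encodes the inhibitor that shields cells from their own granzyme B, measured 0.18 ± 0.16 for RORγt deficiency in DMSO and 0.25 ± 0.16 for digoxin in wildtype cells on its main probe set. That probe set gave 0.50 and -0.00 in the wildtype digoxin arrays, against 0.33 and 0.29 on the other, which measured 0.32 ± 0.14 and 0.31 ± 0.14 in these comparisons.

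Counted together, 7 of the 10 members were above 0 in RORγt deficiency in DMSO and 9 of 10 in digoxin-treated wildtype cells, against 51.5% and 53.3% of all genes. The median member stood at 0.23 and 0.26, and the median of all genes at 0.00 and 0.01. Of the members, 2 passed an adjusted p of 0.05 in limma in each comparison, Gzmb and Nkg7, where limma called 1.05% and 0.121% of all genes. Groups lay apart, with the members higher, for 4 members in RORγt deficiency (20.1% of all genes) and for 5 under digoxin (19.6%). Because known results of these comparisons chose the members, these counts describe the list and support nothing further.

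The call of Gzmb in RORγt deficiency in DMSO was lost without wildtype DMSO array 2, which left Nkg7. For digoxin in wildtype cells, 0 members were called when any 1 of the 4 wildtype arrays or of the 2 RORγt-deficient digoxin arrays was left out. Quantile normalisation of the deposited values left Nkg7 as the single member called in RORγt deficiency and 0 called for digoxin in wildtype cells. That normalisation acted on differences already centred on wildtype DMSO and not on levels. It is therefore no check of how levels were normalised. In bulk RNA, a change in the number of expressing cells and a change in RNA per cell cannot be told apart.

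**Figure D2:**
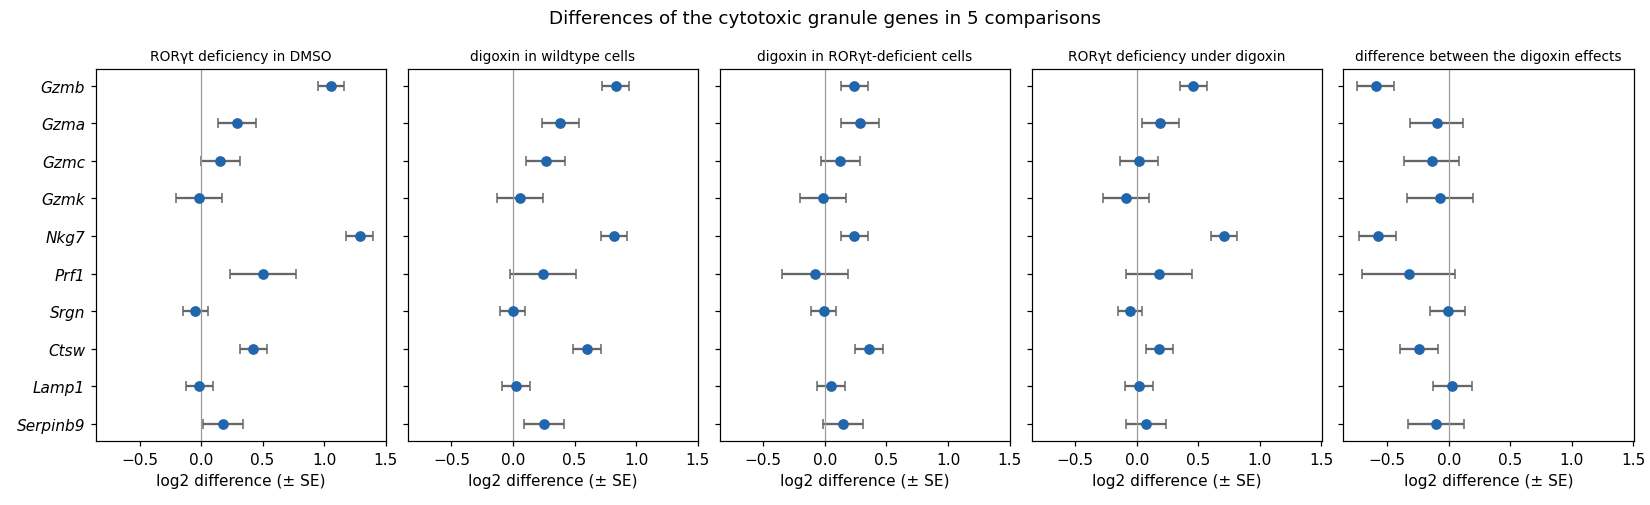
Log2 differences of the main probe set of each cytotoxic granule gene in 5 comparisons, with bars of 1 limma standard error (n = 2 arrays per group). Gzmb and Nkg7 lie furthest to the right in the 2 comparisons with known results and at 0.24 each for digoxin in RORγt-deficient cells.

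Digoxin was next compared with DMSO within RORγt-deficient cells, which asks what the drug does where its proposed target is missing. This comparison, RORγt deficiency under digoxin, and the difference between the digoxin effects were not among the results that chose the members, but they share arrays with those that did. Limma called 0 of the 10 members, against 0.0055% of all genes, a single gene. That gene, named after its value was seen, was Il17a, the signature Th17 cytokine gene, which fell by 1.88 on the log2 scale (SE 0.12, adjusted p = 0.000634), and 639 of all genes had an unadjusted p under 0.05. Il17a was thus lower with digoxin also in cells labelled RORγt-deficient, and the gene encoding RORγt itself was not analysed here.

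Ctsw was the member with the highest value for digoxin in RORγt-deficient cells, at 0.36 ± 0.11 (95% interval 0.11 to 0.61). It was the 177th highest of 18193 genes in this comparison. Gzma stood at 0.29 ± 0.15 (interval -0.05 to 0.63), and Gzmb and Nkg7 at 0.24 ± 0.11 each, with intervals from just below 0 to 0.48 for Gzmb and from 0.00 to 0.48 for Nkg7. Both stood at 0.12 after quantile normalisation. Intervals here are for single genes and not adjusted for the number tested. The remaining values were 0.15 for Serpinb9, 0.13 for Gzmc, 0.05 for Lamp1, -0.01 for Srgn and Gzmk, and -0.08 for Prf1, whose other probe set read 0.18. The limma adjusted p was 1 for each member. Both digoxin arrays lay above both DMSO arrays for 5 members (Gzmb, Gzma, Nkg7, Ctsw and Serpinb9), as for 17.8% of all genes. The median member stood at 0.14 and the median of all genes at 0.02.

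Under digoxin, RORγt-deficient cells were compared with wildtype cells, which asks whether the genotype still matters for these genes when the drug is present. Nkg7 was 1.63-fold higher in the deficient cells (0.71 ± 0.11, interval 0.47 to 0.95), the 11th highest difference of all genes, and did not pass the test (limma adjusted p = 0.118). It passed with a crossed replicate block, an alternative chosen after the data were seen (limma adjusted p = 0.0493). That block swaps the replicate numbers that the titles give the wildtype DMSO arrays. With the numbers as titled, the limma adjusted p of Nkg7 was 0.148. Over the alternatives with no array left out it ran from 0.0493 to 1. After quantile normalisation Nkg7 stood at 0.47. Gzmb was 1.38-fold higher (0.46 ± 0.11, interval 0.22 to 0.70, limma adjusted p = 0.356) and ranked 59th, and stood at 0.24 after quantile normalisation. Gzma and Ctsw stood at 0.19 ± 0.15 and 0.18 ± 0.11, or 0.12 and 0.09 after quantile normalisation, and Gzma at 0.06 when 1 RORγt-deficient digoxin array was left out. Prf1 stood at 0.18 ± 0.27 on its main probe set and 0.38 ± 0.11 on the other (limma adjusted p = 0.703 among all probe sets). Gzmk was at -0.09, Srgn at -0.06, and Gzmc and Lamp1 at 0.02 each. Serpinb9 was at 0.07.

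In this comparison limma called 0 of the 10 members, against 0.0055% of all genes, again Il17a alone (-1.60 ± 0.12, adjusted p = 0.00299, named after its value was seen), with 1003 genes at an unadjusted p under 0.05. The genotypes lay apart, with the deficient cells higher, for Gzmb, Nkg7, Gzma and Ctsw, 4 members, as for 17.4% of all genes. Medians were 0.13 over the members and 0.01 over all genes.

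The digoxin effects in the genotypes were then subtracted, which asks whether the drug acts differently where the receptor is missing. The digoxin effect in deficient cells minus that in wildtype cells was -0.60 ± 0.15 for Gzmb (interval -0.94 to -0.25) and -0.58 ± 0.15 for Nkg7 (interval -0.92 to -0.24). They were the 54th and 61st lowest of 18193 genes. Prf1 stood at -0.32 ± 0.38 and at 0.07 on its other probe set, Ctsw at -0.24 ± 0.16, and the others between -0.14 (Gzmc) and 0.03 (Lamp1). Limma called 0 members and 0% of all genes, with 562 genes at an unadjusted p under 0.05, and each member's adjusted p was 1. This difference contains the wildtype digoxin values that were known when the members were chosen, so it is no independent result for them.

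Order across the 4 groups was then read for each member. Gzmb, Nkg7 and Ctsw were the 3 members whose groups were all apart, with wildtype DMSO lowest and RORγt-deficient digoxin highest. Of all genes, 69 (0.379%) had that arrangement and 309 (1.7%) had 4 separate groups in any order. The arrangement includes the comparisons with wildtype DMSO whose known results chose the members. It therefore describes the list and supports nothing further. On main probe sets the means of Gzma, Gzmc and Serpinb9 followed the order of Ctsw, with overlapping arrays. That order was wildtype DMSO, RORγt-deficient DMSO, wildtype digoxin and RORγt-deficient digoxin. The other Serpinb9 probe set, in the dimmest range, had means of 0.318 in RORγt-deficient DMSO and 0.314 in wildtype digoxin. On its main probe set, mean Prf1 was highest in RORγt-deficient DMSO, at 0.51 against 0.43 in RORγt-deficient digoxin. The other probe set, with closer pairs, was highest in RORγt-deficient digoxin, at 0.49 against 0.32. Gzmk, Srgn and Lamp1 had means between -0.06 and 0.06 in every group.

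Members varied together only in part. Over the 8 arrays, which share the groups and therefore are not independent points, Pearson's r was 0.98 between Gzmb and Nkg7, 0.90 between Gzmb and Ctsw, 0.87 between Nkg7 and Ctsw and 0.85 between Gzma and Ctsw. Gzmb and Gzmk had an r of -0.07, and Gzma and Gzmk, which are neighbours, of 0.04. Gzmb and its neighbour Gzmc stood at 0.63. Outside the list, the 5 genes most like Gzmb over the arrays were Chit1 (r = 0.995), Glmp (0.992), Gimap7 (0.989), Tnfaip8l2 (0.988) and Sh3bgrl3 (0.987). The 5 most like Nkg7 were Glmp (0.989), Tbxa2r (0.988), Slfn1 (0.986), Parp9 (0.986) and Zfp703 (0.981). Glmp, which encodes a lysosomal membrane glycoprotein, was in both sets. With digoxin its mean was 0.25 in wildtype and 0.44 in deficient cells, and with DMSO 0.34 in deficient cells. Chit1, a chitinase gene, had means of 0.63, 0.99 and 0.75 in these groups. These likenesses describe 8 arrays and carry no test.

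**Figure D3:**
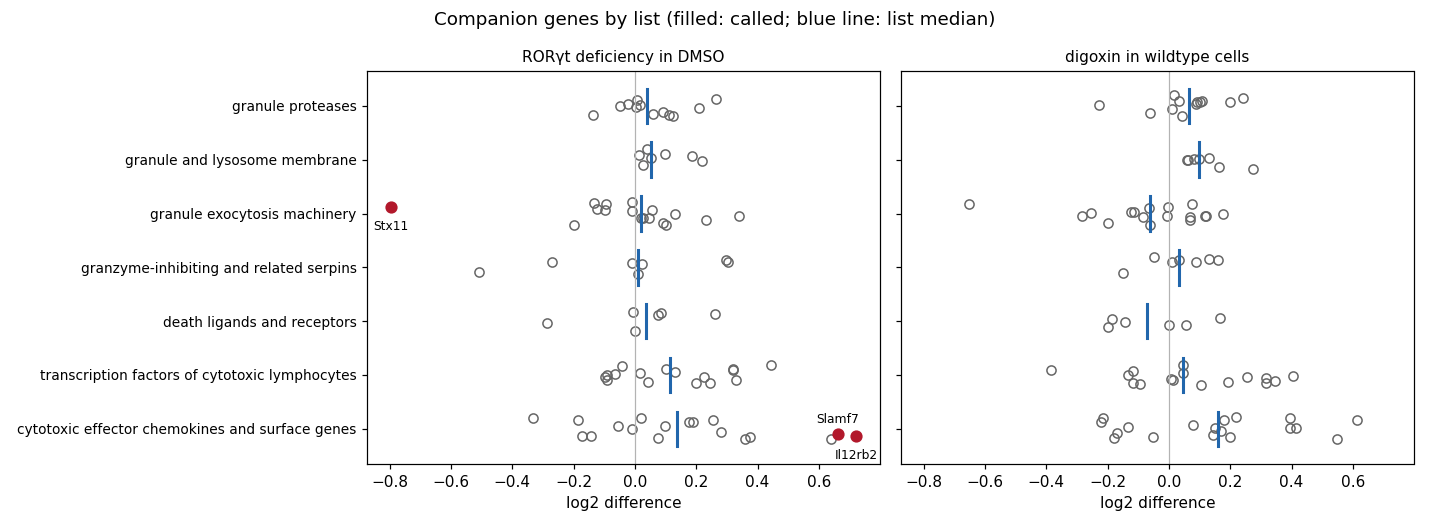
Log2 differences of 83 further genes of the granule pathway in 7 lists, for RORγt deficiency in DMSO (left) and digoxin in wildtype cells (right). Filled points passed an adjusted p of 0.05 in limma, blue lines are list medians, and Stx11, Slamf7 and Il12rb2 are the 3 genes that passed, all in the left panel.

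The rest of the pathway was read from 7 lists of 88 genes, of which 83 were measured. In RORγt deficiency in DMSO limma called 3 of them, 2 higher and 1 lower, or 3 of 83 against 1.05% of all genes. The median of the 83 was 0.05, and 55 of 83 were above 0. The lists were written with earlier results of these data known, so these counts describe them and are no independent test. Il12rb2, a subunit of the interleukin 12 receptor, rose by 0.72 ± 0.13 (adjusted p = 0.0293) and was among the results known when the lists were written. Slamf7, an activating receptor gene of NK and T cells, rose by 0.66 ± 0.13 (adjusted p = 0.0419). Stx11, whose syntaxin 11 is needed for granules to fuse with the plasma membrane, fell by 0.80 on the log2 scale (SE 0.13, adjusted p = 0.0221).

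Stx11 differed in the opposite direction to Gzmb and Nkg7. Its arrays stood at 0.05 and -0.05 with DMSO and -0.55 and -0.75 with digoxin in wildtype cells, and -0.65 and -0.94 with DMSO and -0.88 and -0.74 with digoxin in RORγt-deficient cells. All arrays outside wildtype DMSO lay below it, and the other 3 groups overlapped each other. The 3 calls depended on the arrays: 0 remained without either wildtype DMSO array, after removal of RORγt-deficient DMSO array 2, when other groups were left out of the fit, or after quantile normalisation. For digoxin in wildtype cells limma called 0 of the 83 (0.121% of all genes, 1272 genes at an unadjusted p under 0.05), with Stx11 at -0.65 ± 0.13 (adjusted p = 0.166), Il12rb2 at 0.55 ± 0.13 (adjusted p = 0.29) and Slamf7 at 0.40 ± 0.13 (adjusted p = 0.54). It also called 0 of 83 in each of the other 3 comparisons.

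By role, the proteases nearest to a call were Ctsd, Gzmm and Ctsb. Ctsd, the cathepsin D gene, stood at 0.26 ± 0.11 for RORγt deficiency in DMSO and Gzmm, which encodes granzyme M, at 0.21 ± 0.11. Ctsb measured 0.24 ± 0.12 for digoxin in wildtype cells, and its other probe sets ranged from -0.07 to 0.37. None of the 12 listed proteases was called, and their medians were 0.04 for RORγt deficiency and 0.06 for digoxin. Granule and lysosome membrane genes had medians of 0.05 and 0.10 over 7 measured members, with Atp6ap1 (0.22 ± 0.11) and Scarb2 (0.19 ± 0.10) highest for RORγt deficiency and Laptm5 (0.27 ± 0.15) for digoxin on the probe sets used, and 0 called. The probe sets disagreed for Laptm5, whose 3 brighter ones stood at -0.05, -0.19 and -0.03 for digoxin in wildtype cells. For RORγt deficiency in DMSO other probe sets of Laptm5 and Scarb2 reached 0.37 each, above Atp6ap1.

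The exocytosis machinery had medians of 0.02 and -0.06 over 17 members. Besides Stx11, Sytl1, which encodes a Rab27-binding synaptotagmin-like protein, stood at 0.34 ± 0.10 for RORγt deficiency in DMSO, 0.37 ± 0.10 for RORγt deficiency under digoxin and -0.09 ± 0.10 for digoxin in wildtype cells, none of them called. Vamp8, a vesicle fusion gene, was at 0.23 ± 0.10 for RORγt deficiency in DMSO. The genes Rab27a and Unc13d, mutated in familial defects of granule release, stood at -0.09 ± 0.12 and -0.10 ± 0.14.

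Among 7 measured serpins, Serpinb1a, an inhibitor of neutrophil-type serine proteases, was the lowest. It stood at -0.51 ± 0.12 for RORγt deficiency in DMSO (adjusted p = 0.115) and -0.53 ± 0.12 under digoxin (adjusted p = 0.331), and at 0.09 ± 0.12 for digoxin in wildtype cells. Its arrays were at -0.10 and 0.10 with DMSO and 0.17 and 0.00 with digoxin in wildtype cells, and -0.41 and -0.61 with DMSO and -0.40 and -0.48 with digoxin in RORγt-deficient cells. All 4 RORγt-deficient arrays were below all 4 wildtype arrays. Serpinb9b and Serpinb6a, relatives of Serpinb9, were each at 0.30 for RORγt deficiency in DMSO, and the list had medians of 0.01 and 0.03.

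Death ligands and receptors had medians of 0.04 and -0.07 over 6 members, with 0 called. Fas, the death receptor gene, stood at 0.26 ± 0.11 for RORγt deficiency in DMSO, its ligand gene Fasl at -0.29 ± 0.14 and Lta, the lymphotoxin gene, at 0.07 ± 0.10. Transcription factors of cytotoxic lymphocytes had medians of 0.12 and 0.04 over 16 members. Of these, 11 were above 0 for RORγt deficiency in DMSO and 11 for digoxin in wildtype cells. Id2 was the lowest for digoxin in wildtype cells, at -0.39. Its arrays were at -0.38 and -0.39 in wildtype digoxin and -0.45 and -0.45 in RORγt-deficient digoxin. Tbx21, which encodes the Th1 and cytotoxic regulator T-bet, was at 0.32 ± 0.10 for RORγt deficiency and 0.35 ± 0.10 for digoxin in wildtype cells, Hopx at 0.32 ± 0.11 in both, and Klf2 at 0.33 ± 0.12 and 0.31 ± 0.12, none of them called. Chemokine and surface genes had medians of 0.14 and 0.16 over 18 members, and Ccl4, which encodes the chemokine MIP-1β, stood at 0.37 ± 0.11 and 0.42 ± 0.11. Ccl5, the RANTES chemokine gene, stood the other way, at -0.33 ± 0.11 for RORγt deficiency in DMSO, the lowest of its list, and -0.21 ± 0.11 for digoxin in wildtype cells.

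**Figure D4:**
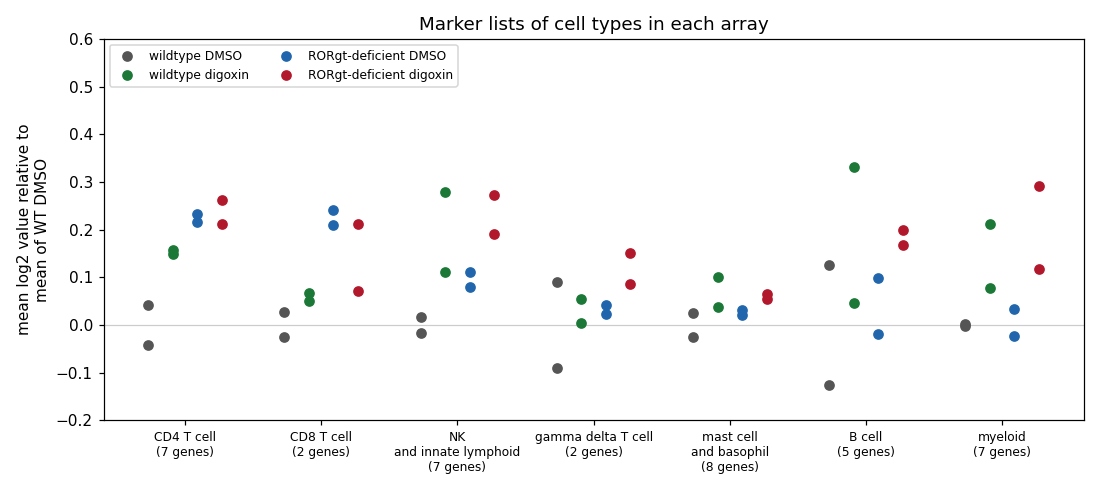
Mean log2 value of each cell type marker list in each array, relative to wildtype DMSO, with points for arrays and colours for groups. The NK and innate lymphoid list lies between 0.08 and 0.28 outside wildtype DMSO, and the CD4 T cell list between 0.15 and 0.26.

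Markers were read for the labelled cell type and for others that express granule genes. All 7 measured CD4 T cell markers had a lowest level of 8 or above. Cd8a and Cd8b1 were between 4 and 8, and of the 7 measured NK and innate lymphoid markers 4 were in the dimmest range, Ncr1 among them, and 3 between 4 and 8. Limma called 0 of 38 markers in each of the 5 comparisons.

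The mean of the NK and innate lymphoid list was 0.02 and -0.02 with DMSO and 0.11 and 0.28 with digoxin in wildtype cells, and 0.08 and 0.11 with DMSO and 0.19 and 0.27 with digoxin in RORγt-deficient cells. Ncr1, the defining NK receptor gene, stood at 0.00 ± 0.14 for RORγt deficiency in DMSO and 0.10 ± 0.14 for digoxin in wildtype cells, and 6 of the 7 were above 0 in each. Klre1 was at 0.19 ± 0.10 and 0.48 ± 0.10, Klra8 at 0.32 ± 0.13 and 0.24 ± 0.13, Eomes at 0.24 ± 0.13 and 0.41 ± 0.13, and Fcgr3 at -0.29 ± 0.12 and -0.03 ± 0.12. For digoxin in RORγt-deficient cells Klre1 stood at 0.42 ± 0.10, the 59th highest of all genes and the highest of this list. There 6 of the 7 were above 0, with Klra8 at 0.00 ± 0.13, and Eomes was below 0 at -0.13 ± 0.13. Cd8a stood at 0.22 ± 0.13 for RORγt deficiency in DMSO and 0.09 ± 0.13 for digoxin in wildtype cells. Cd8b1 stood at 0.23 ± 0.13 and 0.03 ± 0.13 in these comparisons. The CD4 T cell list was higher as well. Its means ran from 0.15 to 0.16 in wildtype digoxin and from 0.21 to 0.26 in the RORγt-deficient arrays. Cd3g was its highest gene, at 0.43 ± 0.12 for both comparisons. Cd4 itself stood at 0.17 ± 0.10 for RORγt deficiency in DMSO and 0.09 ± 0.10 for digoxin in wildtype cells. Most genes of this list are shared by other T cells, so it does not set CD4 T cells apart from them.

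The B cell list had means of 0.13 and -0.13 with DMSO and 0.05 and 0.33 with digoxin in wildtype cells, and -0.02 and 0.10 with DMSO and 0.20 and 0.17 with digoxin in RORγt-deficient cells. Cd79a, which encodes a subunit of the B cell receptor, was at 0.48 ± 0.19 for digoxin in wildtype cells. Myeloid list means were 0.08 and 0.21 in wildtype digoxin and 0.12 and 0.29 in RORγt-deficient digoxin, against -0.02 and 0.03 in RORγt-deficient DMSO. Csf1r, a receptor gene of macrophages, was at 0.43 ± 0.13 for digoxin in RORγt-deficient cells, the 55th highest of all genes. Like Klre1, it lay above every granule gene member there. Csf1r was the highest of 7 measured myeloid markers, of which 6 were above 0. Lyz2 stood at 0.05 ± 0.15 and Itgam below 0 at -0.13 ± 0.11. The γδ T cell list and the mast cell and basophil list had means from -0.09 to 0.15 on all arrays. The part of any of these cells in the granule gene values was not tested.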

How the data were processed

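Total RNA of 8 samples was measured on Affymetrix arrays. Per the submitters' processing notes the values were made with RMA, and the series' design text names GeneSpring GX. The deposited table holds log2 values of 45101 probe sets, in which the wildtype DMSO values of a probe set sum to 0 within 1.0e-06, so every value is a difference from that group's mean. No label records this step, and base 2 is inferred from RMA and the binary step of the numbers. Differences between groups are unaffected.

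Probe sets with 1 gene symbol were kept, 34945 after controls were left out, and 34741 of them matched RefSeq. For each gene 1 probe set was taken by its suffix, in the order _at, _a_at, _s_at and _x_at, with ties settled by identifier, which gave 18193 genes. The range of lowest levels came from the single-precision step of the values, a reading that was right for 99.25% of 2000 simulated probe sets. Arrays were grouped by their titles. All genes were fitted with limma 3.58.1 in R 4.3.3, with 4 group means over 8 arrays, 4 residual and 5.80 prior degrees of freedom, two-sided tests, Benjamini-Hochberg adjustment within each of 5 comparisons, and a call at an adjusted p under 0.05. With a median SD of 0.126 per gene, precision is limited by the number of arrays. The fit was tested on simulated data.

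The members and lists were chosen with earlier results of these data known. Named were all members, companion genes that were called or, per list, up to 3 with the smallest adjusted p over the comparisons, and the 5 genes most correlated with Gzmb and with Nkg7. Il17a, the neighbours of Gzmc, Rab27a, Unc13d, Ccl5, Id2 and the markers were named outside this rule. They were chosen for their role or after their values were seen. Promoters came from the RefSeq table of GRCm38.p6, and gene order from that assembly. Alternatives were quantile normalisation of the centred values, only the compared groups, array weights and a replicate block. Others were a filter on dim probe sets, every probe set, a robust prior and each array left out. Genotype labels could not be compared with the level of RORγt, whose gene was not analysed here.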

Additional observations from a re-analysis of the deposited data

How the results depend on the processing

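Gzmb, Nkg7 and Ctsw kept their direction in all 5 comparisons under all 16 alternatives, of which a crossed replicate block was added after the data were seen. In the 3 comparisons that did not choose the members, limma called 0 of 10 with no array left out, except under that crossed block. The crossed block called 1, Nkg7, for RORγt deficiency under digoxin (limma adjusted p = 0.0493). Of these 3, the difference of digoxin effects contains the known digoxin effect in wildtype cells. That difference is therefore no independent result for the members. The companion calls for RORγt deficiency in DMSO, 3 as reported, were 0 after quantile normalisation, 0 with only the compared groups, 5 with the crossed block and from 0 to 2 when single arrays were left out. Calls over all genes for RORγt deficiency in DMSO were 191 as reported, 4 after quantile normalisation, 95 with only the compared groups, 414 with the crossed block and from 17 to 188 without single arrays. For digoxin in wildtype cells they were 22, 3, 9, 60 and from 6 to 23, and 35 with array weights. For RORγt deficiency under digoxin, 1 gene as reported became 27 with the crossed block, while counts in the other 2 comparisons stayed between 0 and 2. With the replicate number as a replicate block the counts of members called were 2, 2, 0, 0 and 0, as reported, those over all genes 181, 25, 1, 0 and 2, and 2 companions were called for RORγt deficiency in DMSO. Same-numbered arrays had correlations of deviations of 0.45, 0.34 and 0.33 in the 3 pairs of groups without wildtype DMSO and of -0.24, -0.19 and -0.14 in the 3 with it, so the numbers as given do not establish pairs, and the crossed block swaps the wildtype DMSO numbers. Directions turned for all members but Gzmb, Nkg7 and Ctsw in at least 1 comparison. After quantile normalisation, digoxin in wildtype cells stood at -0.0036 for Gzmk, RORγt deficiency under digoxin stood at -0.0148 for Gzmc, -0.0070 for Lamp1 and -0.0030 for Serpinb9, digoxin in RORγt-deficient cells at 0.0177 for Gzmk, and the difference of digoxin effects at 0.0213 for Gzmk and -0.000628 for Lamp1. When single arrays were left out, RORγt deficiency in DMSO ranged from -0.0088 to 0.32 for Gzmc, -0.27 to 0.24 for Gzmk and -0.0797 to 0.0533 for Lamp1, and from 0.08 to 0.50 for Gzma, which did not turn. Digoxin in wildtype cells ranged from -0.19 to 0.30 for Gzmk, -0.19 to 0.68 for Prf1, -0.0421 to 0.0384 for Srgn, -0.0383 to 0.0815 for Lamp1 and -0.000372 to 0.50 for Serpinb9. Digoxin in RORγt-deficient cells ranged from -0.0711 to 0.32 for Gzmc, -0.27 to 0.24 for Gzmk, -0.36 to 0.20 for Prf1, -0.0432 to 0.0228 for Srgn and -0.0407 to 0.14 for Lamp1. RORγt deficiency under digoxin ranged from -0.18 to 0.21 for Gzmc, -0.33 to 0.15 for Gzmk, -0.26 to 0.62 for Prf1, -0.0755 to 0.11 for Lamp1 and -0.18 to 0.32 for Serpinb9. The difference of digoxin effects ranged from -0.31 to 0.11 for Gzma, -0.34 to 0.0576 for Gzmc, -0.32 to 0.18 for Gzmk, -0.76 to 0.11 for Prf1, -0.0486 to 0.0319 for Srgn, -0.0623 to 0.12 for Lamp1 and -0.35 to 0.15 for Serpinb9. The cause was not tested. Signal over background was not tested. Of the members that turned, Gzmc and Gzmk were in the dimmest range, Srgn and Lamp1 at 8 or above, and the others between.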
